A study of Mus musculus with 22 samples.

Results

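The messenger RNA pool of the fasted chow-fed mouse liver was described from the 3 mRNA libraries of chow animals, out of 22 samples in the series. The mice were wild type C57BL/6J, were kept on standard chow to an age of 24 weeks, and were killed after an overnight fast. The livers were frozen in place with cooled clamps and ground to a powder, so each library holds the RNA of all cell types of the liver, and polyadenylated RNA was sequenced from both ends. The labels do not name a drug, an allele or a reporter in these animals, and they do not state the sex. The other samples are livers on a high-fat diet and chromatin libraries, and no comparison of diets is made here. The 23227 genes of the count table were ranked by their mean CPM, which is a gene's counts in a library divided by the total of that library and multiplied by 1000000.

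The hepatocyte, the main cell of the liver, makes most proteins of blood plasma, and it also carries the enzymes that clear ammonia, break down amino acids, oxidise fat and modify foreign compounds. During a fast it releases glucose made from lactate and amino acids, and it turns fatty acids into ketone bodies for other organs. Transcription factors such as HNF4A and the C/EBP proteins keep these genes active in hepatocytes, and nuclear receptors such as PPARA adjust them to feeding and fasting.

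The 3 libraries held 45741794, 19131339 and 19016275 counts in replicates 1, 2 and 3, and 3 counts equal 0.0656, 0.157 and 0.158 CPM in that order. Intervals are not given for single genes, because the spread between libraries exceeded counting noise: the chi-square statistic per degree of freedom between pairs of libraries lay between 9.4 and 27.2. The labels do not say that each library is a separate animal, so the SD given after a mean measures the spread between these 3 libraries, which may in part be technical. A longer transcript gives more counts per molecule, and transcript lengths were not used here, so every order below is an order of counts and not of molecules. Replicate 1 had the highest shares of pancreas and striated muscle markers, and the source of these counts was not tested. Markers of the exocrine pancreas, the enzyme-making part of that gland, took 0.261% of its counts against 0.117% and 0.0443% in replicates 2 and 3. Striated muscle markers took 0.0121% of its counts against 0.000131% and 7.36e-05%. Insulin 2 (Ins2), the hormone of islet beta cells, had 59 counts in replicate 1 and was listed at 0 in the other libraries.

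The pool was concentrated in few genes. The 10 highest genes held 15.6%, 15.8% and 16.41% of the counts in replicates 1, 2 and 3, a mean of 15.94% ± 0.424 (SD, n = 3). The 100 highest held 42.82% ± 0.395 and the 200 highest 51.67% ± 0.259. On the mean CPM, 176 genes held 50% of all counts, and within the single libraries 178, 178 and 171 genes did. At the other end, 5866 genes had no count in any library, and the median gene stood at 1.10 CPM. A mean of at least 1 CPM was reached by 11737 genes, 10 CPM by 7504 genes, 100 CPM by 1376 genes and 1000 CPM by 132 genes. The 3 libraries drew nearly the same curve, and 92 genes were among the 100 highest in every library.

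**Figure D1:**
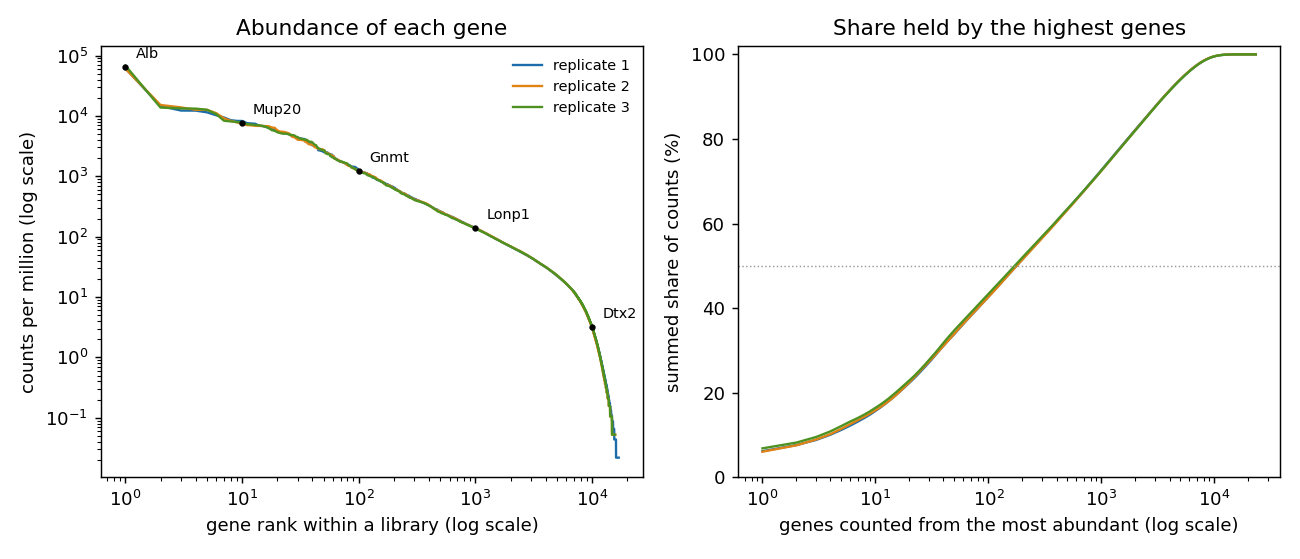
The left panel plots CPM against gene rank within each of the 3 chow libraries, both on log scales, with 5 named genes marked at their mean. The right panel plots the summed share of counts (%) against the number of genes counted from the most abundant, and the curves cross the dotted line at 50% between 171 and 178 genes.

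The ladder began with albumin (Alb), the main carrier protein of plasma, at 61624, 60433 and 68347 CPM, or 6.35% of all counts. Albumin stood 4.62-fold above the gene that followed it, and the libraries kept a wide gap between them. Below it the steps were small. Rank 10 was held by Mup20, a urinary protein that acts as a male pheromone, at 7628 ± 721 CPM. Rank 100 was held by Gnmt, which methylates glycine and so uses up S-adenosylmethionine, at 1244 ± 178 CPM. Rank 1000 was held by Lonp1, a protease of the mitochondrial matrix, at 138 ± 7.497 CPM. Ranks 5000 and 10000 were held by Unc93b1, which escorts nucleic-acid-sensing Toll-like receptors, at 22.7 ± 2.49 CPM and by Dtx2, a ubiquitin ligase of the Deltex family, at 3.15 ± 0.326 CPM. Of the 24 pairs of neighbours among the 25 highest genes, 22 had ranges over the libraries that overlapped. The 2 pairs that did not overlap were Alb above Serpina3k and Mat1a above Apob, so the order of the other neighbours did not exceed the spread between libraries.

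Secreted proteins and the metabolic class, which holds enzymes and also lipid-binding, storage, droplet-coat and some transport proteins of the same pathways, filled the top of the pool. Among the 10 highest genes, 7 encode secreted proteins, with 12.46% ± 0.410 of all counts, and 3 encode enzymes, with 3.48% ± 0.0826. Among the 100 highest, 45 encode secreted proteins (24.91% ± 0.695 of counts) and 45 belong to the metabolic class (15.74% ± 0.301). Among the 200 highest, the metabolic class was the more numerous with 97 genes against 67 secreted proteins, yet the secreted proteins still held more of the counts, 26.87% ± 0.729 against 20.27% ± 0.431. Of these 200 genes, 28 were in none of the lists and were placed in a class by hand after their values were seen.

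The lists gave the same picture over a wider range. The 187 genes of the 8 lists of secreted proteins took 28.01%, 28.00% and 29.27% of the counts in replicates 1, 2 and 3. The 737 genes of the 13 metabolic lists took 28.4%, 27.9% and 27%. The 284 genes of the lists of protein synthesis, folding and turnover and of the cytoskeleton took 5.24% ± 0.197, and the 246 genes of the regulator lists took 1.81% ± 0.0256. Genes of no list held the remaining 36.76% ± 0.0518. The median member had 258 CPM for secreted proteins, 115 CPM for the housekeeping lists, 93.8 CPM for metabolic genes and 33.3 CPM for regulators. A level of 1000 CPM was reached by 27.3% of the secreted proteins, 8.01% of the metabolic genes, 2.11% of the housekeeping genes and 0.813% of the regulators, against 0.568% of all genes.

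**Figure D2:**
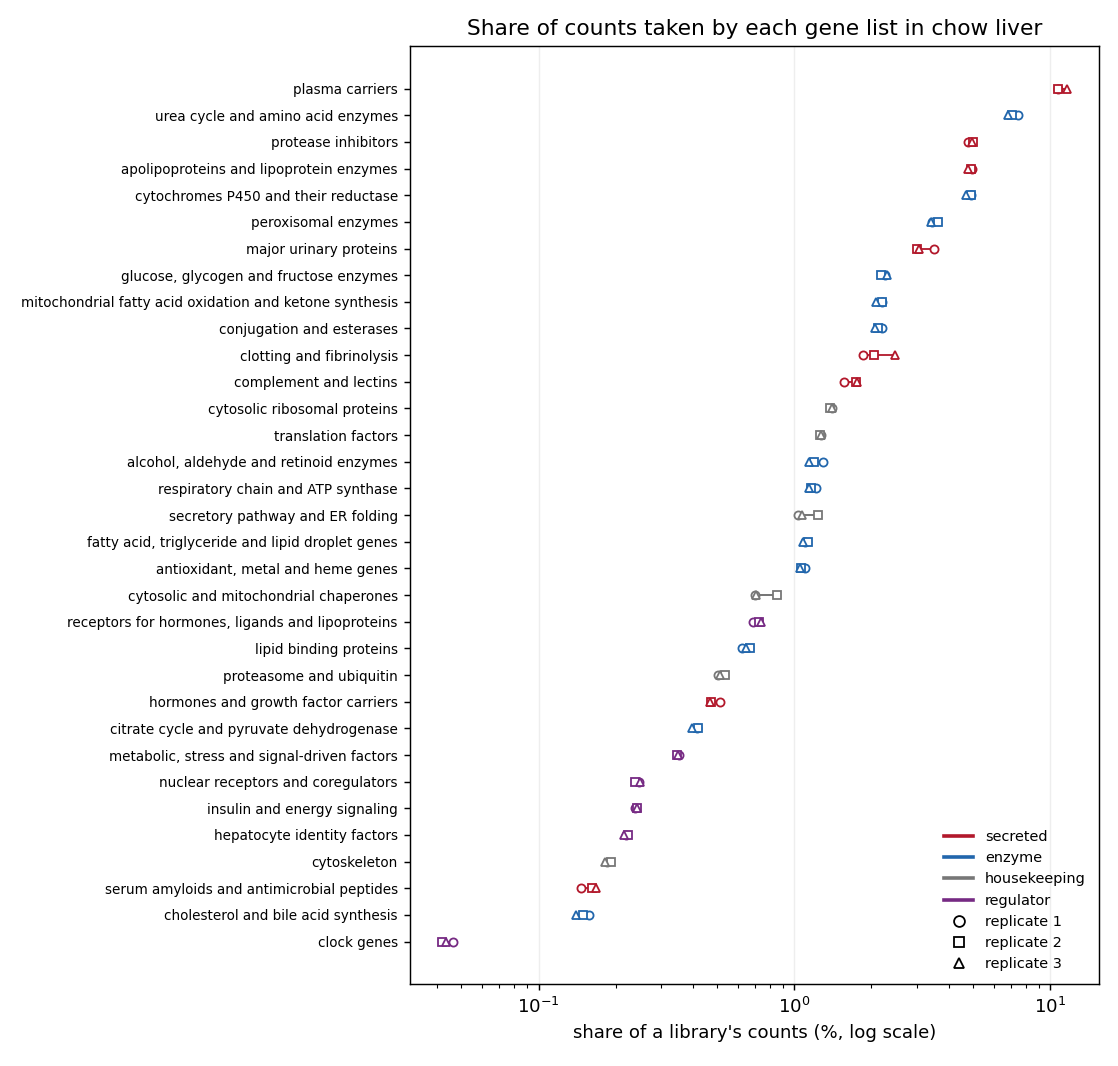
Each row is a list of genes, and the open circle, square and triangle give its summed share of counts (%, log scale) in replicates 1, 2 and 3 of chow liver. Colour marks the role of the list, where enzyme stands for all metabolic lists, and the rows run from plasma carriers at 11.02% on average down to clock genes at 0.0439%.

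Plasma carriers were the largest list of secreted proteins, with 11.02% ± 0.538 of the counts, and albumin made up 57.6% of that. Transferrin (Trf), which carries iron, had 8496, 7858 and 7914 CPM. Selenoprotein P (Sepp1), which carries selenium to other organs, had 6276, 6789 and 6987 CPM. Replicate 1 was the highest library for Trf and the lowest for Sepp1. Fetuin A (Ahsg), a mineral-binding glycoprotein, had 5306, 5523 and 5679 CPM. The vitamin D-binding protein (Gc) had 5120.4, 5307 and 5386 CPM. Retinol-binding protein (Rbp4) averaged 4066 ± 159 CPM and transthyretin (Ttr), its partner and a thyroid hormone carrier, 3235 ± 182 CPM. Of the 20 carriers over 10 CPM, 15 had their highest value in replicate 3. Over all 7504 genes of at least 10 CPM, 2581 were highest in replicate 1, 2506 in replicate 2 and 2417 in replicate 3.

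Apolipoproteins and the enzymes that act on lipoproteins took 4.86% ± 0.0835 of the counts. Apoe, the ligand through which remnant particles are taken up, had 14558, 12606 and 12658 CPM. Apob, the structural protein of very low density lipoprotein, had 9417, 11126 and 10746 CPM, and its transcript is very long, which raises its counts per molecule. Apoe was highest in replicate 1 and Apob was lowest there, and the ranges did not overlap. Apoa1 and Apoa2, the main proteins of high density lipoprotein, averaged 6770.1 ± 144 and 5392 ± 266 CPM. Lcat, which esterifies plasma cholesterol, had 372 ± 10.7 CPM.

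Protease inhibitors took 4.89% ± 0.104 of the counts. Serpina3k, an inhibitor of kallikrein-like proteases, had 12279, 15178 and 13752 CPM and made up 28.1% of the list. Mug1, a relative of alpha-2-macroglobulin, had 7605, 6991 and 7316 CPM. Serpina1e, one of the mouse alpha-1-antitrypsin genes, had 5150.2, 5176 and 5099 CPM, a coefficient of variation (CV, the SD as a percentage of the mean) of 0.759%. The 5 Serpina1 genes with counts are near-identical copies and could share reads, so the summed 17220 ± 704 CPM of the family is more certain than the division among them. The major urinary proteins, male-biased pheromone carriers that are encoded by another family with many near-identical copies, took 3.52%, 3.02% and 3.08% of the counts. Of 14 Mup genes over 10 CPM, 12 had their highest value in replicate 1 and none in replicate 3. Mup3 and Mup7 followed Mup20 with 7188 ± 326 and 4937 ± 741 CPM.

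Clotting and fibrinolysis genes took 1.86%, 2.05% and 2.46% of the counts, and complement and lectin genes took 1.56%, 1.75% and 1.75%. The fibrinogen alpha chain gene (Fga) had 2626, 3329 and 4948 CPM. The beta chain gene (Fgb) had 2602, 3434 and 4763 CPM. The gamma chain gene (Fgg) had 1836, 2447 and 3321 CPM. The chains that join to form the clot protein thus had the same order of libraries, with replicate 3 at 1.84 times replicate 1 for their sum. Complement component C3, on which all complement pathways converge, had 7409, 8279 and 8113 CPM and made up 47.1% of its list. Hc, the mouse C5 gene, and Cfb, a protease of the alternative pathway, averaged 1010.3 ± 134 and 972 ± 32.1 CPM.

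Hormones were rarer than carriers. The list of hormones and growth factor carriers took 0.484% ± 0.0232 of the counts. Igfbp4 and Igfbp2, which bind insulin-like growth factors, averaged 1219.9 ± 124 and 801 ± 43.9 CPM. Igf1, the growth factor itself, had 513, 509 and 473 CPM. Fgf21, a fasting hormone, had 7.74, 15.3 and 15.5 CPM. Hepcidin (Hamp), which limits iron release into the blood, had 854, 941 and 993 CPM and made up 58.6% of the list of serum amyloids and antimicrobial peptides. C-reactive protein (Crp), an acute phase gene that responds only weakly in mice, and Saa4, a constitutive serum amyloid, averaged 400.4 ± 37.4 and 136 ± 12.9 CPM. The inducible acute phase gene Saa1 had 18.8, 27.9 and 17.7 CPM.

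Among the metabolic lists, the urea cycle and amino acid list was the largest, with 7.48%, 7.09% and 6.86% of the counts, and 24 of its 100 members were among the 200 highest genes. Mat1a, which makes S-adenosylmethionine, had 12245, 12640 and 13316 CPM. Cps1, which fixes ammonia at the entry to the urea cycle, had 6800, 7048 and 6810.4 CPM. Bhmt, which remethylates homocysteine with betaine, had 8251, 6736 and 4825 CPM. Cps1 varied by a CV of 2.04% and Bhmt by 26.0%, the widest CV among the 25 highest genes, with replicate 1 highest and replicate 3 lowest. The other urea cycle enzymes stood below Cps1: Arg1, which releases urea, had 2204 ± 108 CPM, Asl 1519.8 ± 77.5 CPM, Ass1 1179.5 ± 63.4 CPM and Otc 363 ± 42.0 CPM. A pseudogene, Gm5424, had 1712 ± 129 CPM, which is above Asl and Ass1. Reads that it could share with other genes, such as Ass1, were not separated here. The place of Ass1 below Arg1 and Asl was therefore not settled. Of the 92 members over 10 CPM, 69 had their highest value in replicate 1, against 2581 of all 7504 genes of at least 10 CPM.

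Cytochromes P450 and their reductase took 4.83% ± 0.114 of the counts. Cyp4a14, a fatty acid omega-hydroxylase that PPARA induces, had 11475, 13854 and 13216 CPM. Cyp2e1, which oxidises ethanol, acetone and many solvents, had 10260, 9136 and 8322 CPM. Cyp4a10, a second omega-hydroxylase, had 5286, 6370 and 5805 CPM. Both Cyp4a genes were lowest in replicate 1 and Cyp2e1 was highest there, and the Cyp4a, Cyp2c and Cyp2d families hold near-identical copies that can share reads. The 3 named genes held 57.8% of the list, and 12 of its 95 genes had no count. Por, the reductase that gives electrons to these enzymes, had 582 ± 36.4 CPM, and Cyp7a1, the rate-limiting enzyme of bile acid synthesis, had 508, 371 and 350.1 CPM. Conjugation and esterase genes took 2.13% ± 0.0667, led by Mgst1, a membrane glutathione transferase, at 3921 ± 100.9 CPM. They were followed by Ephx2, the soluble epoxide hydrolase, at 1914 ± 87.5 CPM and Ces1c, a carboxylesterase released into plasma, at 1687 ± 21.8 CPM. Alcohol, aldehyde and retinoid enzymes took 1.21% ± 0.0742, with Aldh1a1, which makes retinoic acid, at 1559.7 ± 99.3 CPM, Aldh2, the mitochondrial acetaldehyde dehydrogenase, at 1281 ± 155 CPM and the retinol dehydrogenase Rdh7 at 1144 ± 23.5 CPM.

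Fat oxidation genes stood high in these fasted livers. The list of peroxisomal enzymes took more of the counts in sum than the mitochondrial list. Its median member was lower, at 149.3 CPM against 214.5 CPM in the mitochondrial list. Peroxisomal enzymes took 3.45%, 3.63% and 3.42% of the counts, and mitochondrial fatty acid oxidation and ketone synthesis took 2.19%, 2.21% and 2.08%. Ehhadh, the peroxisomal bifunctional enzyme, had 4651, 5796 and 5239 CPM. Scp2, which encodes a peroxisomal thiolase and a sterol carrier, had 5067, 5424 and 5092 CPM. Both genes had their highest value in replicate 2. In the mitochondrial list, Acsl1, which activates fatty acids, and Cpt1a, which passes them into mitochondria, averaged 2749 ± 329 and 1026 ± 20.5 CPM. Fabp1, the fatty acid binding protein of hepatocyte cytosol, had 2381, 2876 and 2677 CPM, and it led the list of lipid binding proteins before Ttpa, which carries vitamin E, at 849 ± 48.6 CPM and Stard10, a phospholipid transfer protein, at 705 ± 47.6 CPM.

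Lipid building stood lower. Genes of fatty acid, triglyceride and lipid droplet handling took 1.10% ± 0.0266 of the counts, led by the droplet coat gene Plin2 at 1267 ± 151 CPM, the desaturase gene Scd1 at 1253 ± 184 CPM and the elongase gene Elovl2 at 1068 ± 110 CPM. Fatty acid synthase (Fasn) had 78.3, 64.7 and 58.8 CPM. The 24 genes of cholesterol and bile acid synthesis took 0.149% ± 0.00926, with the lysosomal lipase gene Lipa at 280.3 ± 11.6 CPM and the sterol desaturase gene Sc5d at 165 ± 8.94 CPM. Hmgcs1, an early enzyme of cholesterol synthesis, was listed at 0 in all libraries. The respiratory chain gene Ndufs5 and the ribosomal gene Rpl26 were listed at 0 as well, and the glycolytic gene Eno1 had 5, 2 and 4 counts, so a 0 in this table does not show that a transcript is missing.

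Among carbohydrate enzymes, which took 2.24% ± 0.0570 of the counts, Pck1, the control step of glucose synthesis, had 4009, 2808 and 4021 CPM. Replicate 2 alone was low for Pck1, and its CV was 19.3%. G6pc, which releases free glucose, had 428 ± 25.7 CPM, and Ldha, which links lactate with pyruvate, had 1569 ± 251 CPM. The citrate cycle and pyruvate dehydrogenase list took 0.412% ± 0.0121, and its highest members were Mdh1, a cytosolic malate dehydrogenase, at 555 ± 28.2 CPM, the fumarase gene Fh1 at 405 ± 39.5 CPM and Dlst, a subunit of the 2-oxoglutarate dehydrogenase complex, at 330.1 ± 14.0 CPM. The respiratory chain and ATP synthase list took 1.17% ± 0.0383, led by the ATP synthase subunits Atp5b at 1324 ± 29.9 CPM and Atp5a1 at 1091 ± 65.5 CPM and by Sdha, a subunit of succinate dehydrogenase, at 493 ± 16.1 CPM. Antioxidant, metal and heme genes took 1.07% ± 0.0276, led by the ferritin genes Ftl1 at 2984 ± 239 CPM and Fth1 at 1093 ± 37.6 CPM and by glutathione peroxidase Gpx1 at 1039 ± 100.01 CPM. Ferritin and ribosomal genes have many processed copies in the genome, which could take some of their reads.

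Counts for general cell upkeep were spread over many genes of middle rank. The 98 cytosolic ribosomal protein genes took 1.41%, 1.38% and 1.41% of the counts, and none reached 1000 CPM. Their highest members, Rpl4, Rps2 and Rpl10, averaged 523 ± 4.78, 501 ± 23.1 and 438 ± 9.06 CPM, and the highest made up only 3.74% of the list. Translation factors took 1.27% ± 0.00789, led by Eef1a1, which brings aminoacyl-tRNA to the ribosome, with 4355, 4226 and 4457 CPM. Eef2, the translocation factor, and Tpt1, a tubulin-binding growth protein, averaged 1501 ± 95.7 and 948 ± 16.6 CPM. The secretory pathway list, through which the plasma proteins pass, took 1.03%, 1.24% and 1.07%, with protein disulfide isomerase (P4hb) at 1183 ± 50.9 CPM. The endoplasmic reticulum chaperone gene Hsp90b1 had 870.1, 1319 and 1019 CPM, and Hspa5, also named BiP, had 808, 1320.4 and 842 CPM. Cytosolic and mitochondrial chaperones took 0.702%, 0.857% and 0.708%, with Hspa8 at 2284 ± 308 CPM, Hsp90ab1 at 1029 ± 171 CPM and the mitochondrial Hspa9 at 686 ± 37.7 CPM. Of the 22 such chaperones over 10 CPM, 21 had their highest value in replicate 2, and of 57 secretory pathway genes 37 did, against 2506 of all 7504 genes. Proteasome and ubiquitin genes took 0.515% ± 0.0167, with Ubb, which encodes ubiquitin itself, at 384 ± 27.4 CPM and the proteasome subunit Psmd2 at 247 ± 12.02 CPM. The cytoskeleton took 0.186% ± 0.00529, with the actin genes Actb and Actg1 at 258 ± 15.6 and 198 ± 34.1 CPM and the hepatocyte keratin Krt8 at 156 ± 8.89 CPM.

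**Figure D3:**
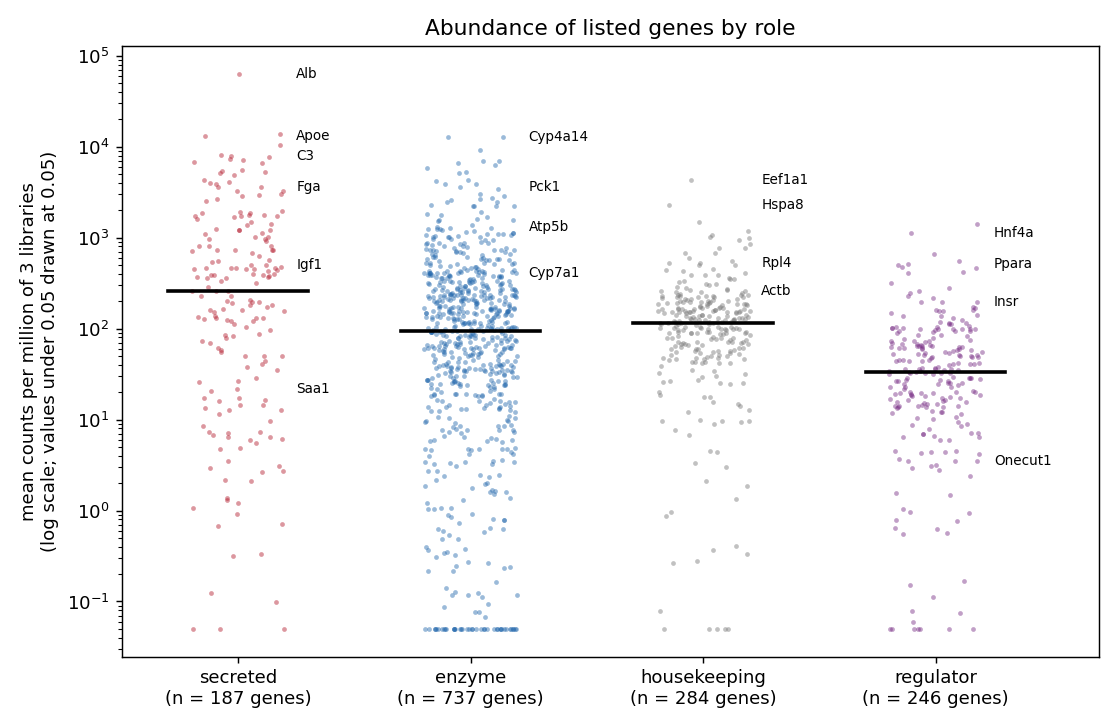
Each point is a gene of the lists, placed by its mean CPM over the 3 chow libraries on a log scale and grouped by role, with black bars at the medians of 258 (secreted), 93.8 (enzyme, the metabolic lists), 115 (housekeeping) and 33.3 CPM (regulator). Genes under 0.05 CPM are drawn at 0.05, and the random sideways scatter carries no meaning.

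Regulators stood below the other 3 roles but above genes at large, with 17.5% of them at 100 CPM or more against 5.92% of all genes. All genes include 5866 with no count, and the lists were chosen with earlier results known, so this gap is not a test. Of the 11737 genes of at least 1 CPM, 1376 reached 100 CPM. Among the regulators, 2 of 246 reached 1000 CPM. Pigr, the receptor that carries IgA into bile, had 1463, 1390.0 and 1345 CPM. Hnf4a, a nuclear receptor that defines the hepatocyte, had 1078, 1164 and 1149.9 CPM and rank 111 among all genes. Hnf4a alone made up 51.6% of the counts of the 21 hepatocyte identity factors. The members after it, Cebpa and Prox1, had 257 ± 26.4 and 115 ± 6.98 CPM, and both are factors of hepatocyte differentiation. The pioneer factors Foxa2 and Foxa1 had 20.4 ± 1.53 and 19.4 ± 2.94 CPM. The lowest members were Gata6 at 9.39 ± 0.931 CPM and Onecut1 at 3.49 ± 0.756 CPM, so members of this list differed by more than 2 orders of magnitude.

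Nuclear receptors and their coregulators took 0.245% ± 0.00521 of the counts. Ppara, the fatty acid sensor of the fasting response, had 487, 538 and 516 CPM, and Rxra, its dimer partner, had 476, 447 and 496 CPM. Their ranges overlapped. Nr1i3, the xenobiotic receptor CAR, had 229, 169 and 187 CPM, and the bile acid receptor Nr1h4 had 160.1 ± 7.25 CPM. The median member, the thyroid hormone receptor gene Thra, had 11.5 ± 1.20 CPM, and Nr2e3, a receptor of photoreceptor cells, and Nr0b1, a regulator of adrenal and gonadal genes, were listed at 0 in all libraries.

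Among metabolic and stress factors, Creb3l3, a membrane-bound factor of the fasted liver, had 510, 520 and 475 CPM. Atf5, a stress-responsive bZIP factor, and Ctnnb1, the Wnt signal carrier beta-catenin, averaged 406 ± 11.6 and 218 ± 9.63 CPM. The median member was Srebf2, the driver of cholesterol synthesis genes, at 36.2 ± 5.54 CPM, and Atf3, an acute stress gene, and Cux2, a female-biased factor in mouse liver, were lowest at 0.787 ± 0.228 and 0.550 ± 0.350 CPM. Srebf1, the driver of lipogenesis, had 34.5, 22.3 and 18.9 CPM. Clock genes took 0.0439% ± 0.00220, and their highest members, Tef, Clock and Hlf, had 116 ± 12.2, 85.2 ± 9.57 and 63.0 ± 4.61 CPM. The median clock gene, Per2, had 20.8, 21.2 and 15.9 CPM, and the lowest, Npas2 and Bhlhe41, had 0.960 ± 0.0290 and 0.649 ± 0.340 CPM. The labels give no clock time of death for these animals.

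The receptor list had a median of 64.5 CPM, and the insulin and energy signaling list had a median of 41.7 CPM. Lrp1, a receptor for remnant lipoproteins, had 673, 636 and 696 CPM, and Adipor2, a receptor for adiponectin, had 521, 587 and 554 CPM. The growth hormone receptor (Ghr) and the glucagon receptor (Gcgr) averaged 315 ± 29.3 and 279.8 ± 22.3 CPM, and the insulin receptor (Insr) had 184, 197 and 200.2 CPM. The median receptor, the interferon receptor chain Ifnar2, had 64.0 ± 1.06 CPM, and the lowest was the interleukin 33 receptor Il1rl1 at 0.0743 ± 0.0275 CPM. Among signal carriers, the protein kinase A subunit Prkar1a led with 174 ± 6.25 CPM, and the phosphatase Ptprf had 131 ± 5.81 CPM. The adaptor Grb2 was the median member with 39.3 ± 0.849 CPM, Irs3 had 0.168 ± 0.0685 CPM, and Irs4 was listed at 0 in all libraries.

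Of the 100 highest genes, 9 were in no list. Retsat, a retinol saturase, had 2326 ± 43.8 CPM. The transporters were Slc38a4, which takes up neutral amino acids, at 1702 ± 62.4 CPM and Slco1b2, which takes up bile acids and drugs, at 1258 ± 47.9 CPM. Errfi1, an inhibitor of the epidermal growth factor receptor, had 1615 ± 44.99 CPM. H2-Q10, a soluble class I antigen of liver, had 1321 ± 96.1 CPM, and Fn1, plasma fibronectin, had 1251 ± 106 CPM. Cml2 had 1414 ± 23.0 CPM, Gm5424 is the pseudogene given above, and A130040M12Rik, at rank 27 with 4633 ± 411 CPM, was not matched to the annotation table. Protein-coding genes held 98.69% of the counts, pseudogenes 0.372% and long noncoding RNAs 0.275%. Among long noncoding RNAs the highest were the nuclear RNAs Neat1, at 427, 276 and 240.4 CPM, and Malat1, at 324, 264 and 251 CPM. Both were highest in replicate 1.

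Abundant genes often sat side by side in the genome. Of 198 genes of the 200 highest that could be placed, 32 (16.2%) had a next protein-coding gene on the chromosome that was also in the set, against 6.03% for ranks 201 to 400 and 6.09% for ranks 401 to 600. They formed 12 runs. The longest was the row of 5 Serpina1 genes on chromosome 12, followed by Apoa1, Apoc3, Apoa4 and Apoa5 on chromosome 9. Runs of 3 were formed by Fgg, Fga and Fgb on chromosome 3, by Itih4, Itih3 and Itih1 on chromosome 14, and by Apoc4, Apoc1 and Apoe on chromosome 7. Most runs hold copies of a gene family, and shared reads between copies were not separated here.

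The cell type content was checked with marker lists. Markers of both ends of the liver lobule were present: periportal markers took 2.63% ± 0.0441 of the counts, and pericentral markers took 1.55%, 1.38% and 1.26%. Cyp2e1 alone made up 66.0% of the pericentral counts, and 9 of the 15 pericentral markers reached 10 CPM. In bulk tissue, fewer cells of a type and less RNA per cell cannot be told apart. Resident macrophage markers took 0.0446%, 0.0486% and 0.0729% of the counts, and all 12 markers over 10 CPM had their highest value in replicate 3. Endothelial markers took 0.0460%, 0.0591% and 0.0673%, and 14 of 17 were highest in replicate 3. The leading members of these lists were the iron exporter Slc40a1, at 152 ± 17.8 CPM, and Ehd3, an endocytic protein of sinusoidal endothelium, at 72.6 ± 15.5 CPM. Stellate cell and fibroblast markers took 0.0485% ± 0.00105, led by the matrix proteoglycan decorin (Dcn) at 195 ± 8.06 CPM.

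Markers of rarer cells were near the floor. None of 14 T and NK cell markers reached 1 CPM, with Cd4 highest at 0.711 ± 0.159 CPM. Of 8 B and plasma cell markers, 1 reached 1 CPM, the joining chain gene Igj at 2.74 ± 1.27 CPM, and of 11 neutrophil markers 2 did, led by Csf3r at 3.03 ± 1.11 CPM. Bile duct markers took 0.00826% ± 0.000846, led by Spp1 at 29.9 ± 4.69 CPM. Of the red cell list, Alas2, the erythroid heme synthesis enzyme, had 73.1 ± 14.5 CPM while Hba-a1, Hba-a2, Hbb-b1 and Hbb-b2 were listed at 0, but the beta globin entry Beta-s had 6038, 1433 and 2105 counts. Of 6 fat cell markers, Cidec, a droplet protein that hepatocytes also express, had 79.6 ± 15.8 CPM, and adiponectin (Adipoq) had 0.280 ± 0.218 CPM. The Y chromosome gene Ddx3y had 111 ± 9.28 CPM with all libraries between 100.2 and 116.3 CPM, so each library held RNA of male tissue.

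The widest spread between the 3 libraries lay in a few groups of genes. Among the 1376 genes with at least 100 CPM the median CV was 5.23%, and 42 genes (3.05%) had a CV over 20%. The biological coefficient of variation, the between-library spread that remains after counting noise, was 0.119 over the 11737 genes of at least 1 CPM and 0.0811 without replicate 1. The steadiest genes were Rpn2, a subunit of the glycosylation complex of the endoplasmic reticulum, with 120.8, 120.4 and 120.8 CPM, then Bcap31, the growth factor receptor Erbb3, the trafficking GTPase Rab14 and the bilirubin-conjugating Ugt1a1, which shares exons with other Ugt1a genes, with CVs from 0.197% to 0.341%. Of the 10 genes with the widest spread, 5 were pancreatic enzymes. The protease gene Ctrb1 had 380.3, 159 and 60.7 CPM, and Cela1, Cela2a, Pnlip and Cpb1 had the same order of libraries. All 24 pancreatic markers over 10 CPM were highest in replicate 1 and lowest in replicate 3.

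The other wide spreads were not pancreatic. Car3, a carbonic anhydrase of liver, muscle and fat, had 331, 176 and 90.0 CPM. Fgl1, a hepatocyte-secreted relative of fibrinogen, had 178, 511 and 697 CPM. It was placed in the receptor list, so the regulator shares and counts include it and those of secreted proteins do not. G0s2, an inhibitor of the triglyceride lipase ATGL, had 96.1, 236 and 193 CPM. Replicate 1 was the highest library for Car3 and the lowest for Fgl1 and G0s2. The chaperone genes Hsp90aa1, with 294, 538 and 341 CPM, and Hsph1, with 78.1, 145 and 77.8 CPM, were high in replicate 2 alone. Striated muscle markers were carried by replicate 1, where the skeletal actin gene Acta1 had 56.3 CPM against 0.105 CPM in replicate 2 and 0 in replicate 3. Car3 is also a muscle gene, and the part of muscle RNA in its order of libraries was not tested. The macrophage and endothelial markers and the fibrinogen genes were both highest in replicate 3, and the part of either in the other was not tested. Without replicate 1, the pancreatic markers averaged 0.0805% of the counts, against 0.141% over the 3 libraries.

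**Figure D4:**
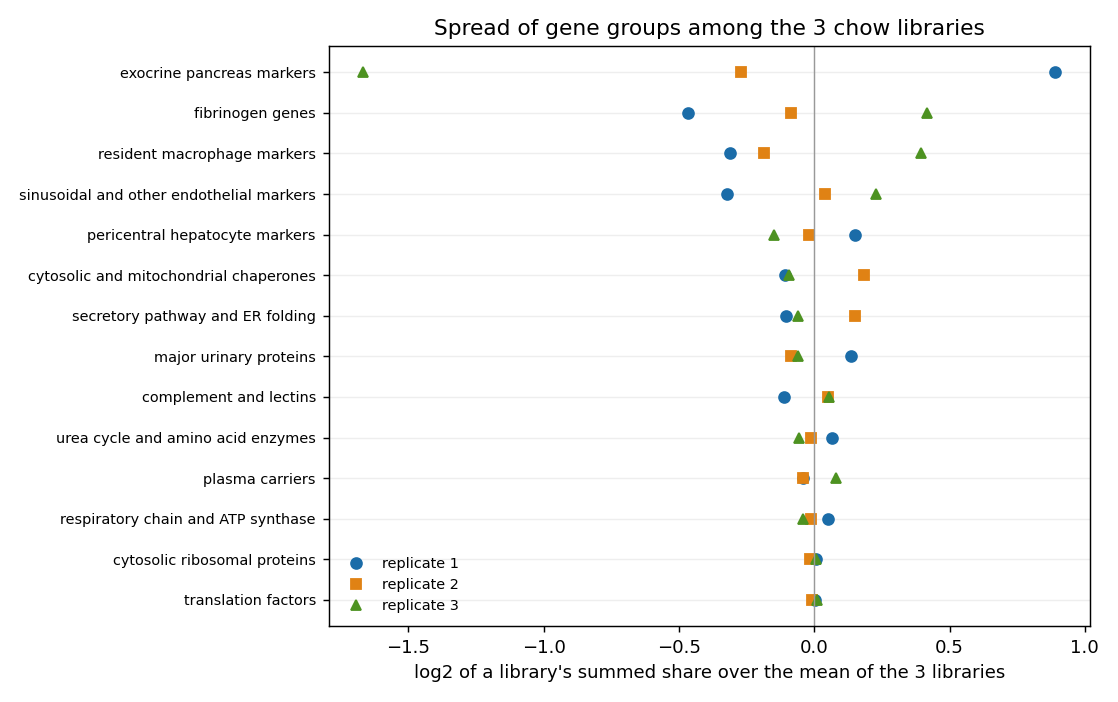
Each symbol gives the log2 ratio of a library's summed share of counts to the mean of the 3 chow libraries, for 14 groups of genes. Of the groups drawn, pancreatic markers spread most, from 0.261% of counts in replicate 1 to 0.0443% in replicate 3, while ribosomal proteins and translation factors lay close together.

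The same study measured histone H3 acetylated at lysine 27 (H3K27ac), a mark of active promoters and enhancers, at the promoters of chow livers in 3 libraries with 4265510, 2376133 and 4964403 promoter counts. These libraries were not tied to the mRNA libraries, so levels were compared over promoters only, and the width of the counted promoter was not given in the sources used here. The promoters of the 100 genes with the most mRNA had a median of 65.4, 58.3 and 63.7 CPM, and those of all 11737 genes with at least 1 mRNA CPM had a median of 66.6, 65.7 and 66.3 CPM. For genes without mRNA counts the median was 4.60 ± 0.496 CPM. In each library the median of the 100 genes was thus no higher than that of the expressed genes, but for the 300 highest genes it was higher, at 83.6, 81.0 and 83.6 CPM, so the direction turned with the number of genes taken. Within the top there was a wide range, from 186 CPM at Apoa5 and 180.0 CPM at Apoe to 9.96 ± 1.68 CPM at Alb, whose promoter ranked 17105 of 23167. The Mup promoters Mup9, Mup16, Mup12, Mup7 and Mup20 had 0.145 to 2.56 CPM, and Mup3 had 14.1 CPM. Many Mup genes are near-identical copies between which reads may not be placed. The part of this in the low values was not tested. Of the 24 pancreatic markers with at least 10 mRNA CPM, 4 had a promoter signal over the median promoter, and their median was 10.8 ± 0.648 CPM, against 73.8 ± 0.287 CPM for all genes of 10 to 250 mRNA CPM.

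The sequence just before the start of transcription is shown for a few of these genes, chosen to set promoters with low and high H3K27ac beside each other. Each line gives the 60 bases before a RefSeq start in the build GRCm38.p6, from 5′ to 3′ on the strand of the gene. Capitals mark TATAAA or TATATA between 40 and 20 bases before the start on the gene's strand, and the hexamer GTTAAT on either strand, which reads ATTAAC when it lies on the other strand. The motifs do not overlap in these lines. TATAAA or TATATA is present in 2.62% of all 32851 windows of the promoter table at that distance. GTTAAT in either orientation is present within 250 bases before the start in 6.43%, while the lines show only the last 60 of those bases.
Alb, chr5:90460810-90460869, plus strand: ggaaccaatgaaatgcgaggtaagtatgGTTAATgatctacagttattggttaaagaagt
Gc, chr5:89457899-89457958, minus strand: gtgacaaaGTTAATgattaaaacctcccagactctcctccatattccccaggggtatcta
Serpina1b, chr12:103738190-103738249, minus strand: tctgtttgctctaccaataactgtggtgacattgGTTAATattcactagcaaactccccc
Fga, chr3:83026093-83026152, plus strand: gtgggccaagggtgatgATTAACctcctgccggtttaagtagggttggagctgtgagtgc
Cyp2e1, chr7:140763759-140763818, plus strand: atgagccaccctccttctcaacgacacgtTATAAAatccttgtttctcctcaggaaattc
Rbp4, chr19:38124812-38124871, minus strand: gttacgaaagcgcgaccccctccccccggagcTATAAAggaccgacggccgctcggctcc
Pck1, chr2:173153013-173153072, plus strand: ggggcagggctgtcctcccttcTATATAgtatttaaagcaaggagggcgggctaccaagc

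Alb, Gc, Serpina1b and Fga hold the hexamer 32, 52, 26 and 43 bases before the start, and their promoters had 9.96, 26.9, 23.1 and 38.7 CPM of H3K27ac. Cyp2e1, Rbp4 and Pck1 hold the TATA letters 31, 28 and 38 bases before the start shown, while another RefSeq start of Rbp4 in the table holds none, and their promoters had 33.1, 131 and 158 CPM. These matches are letters in a window and not shown binding sites, and these genes were picked with their values known. Genes with the TATA letters that are not shown include Mup9 with 0.145 CPM of H3K27ac, Hpx with 47.6 CPM and Fabp1 with 83.6 CPM. Retsat, which also holds these letters, stood above them. Within 250 bases of the start but outside the 60 shown, the hexamer is held by Pck1, Fabp1 and a RefSeq start of Apoe. Their promoters had 158, 83.6 and 180 CPM. Mug1, Serpina1e and Pzp also hold it there, with 15.9, 16.3 and 52.6 CPM. Fgb, Serpina1c and Serpina1d hold it within the last 60 bases, with 17.6, 18.8 and 15.3 CPM. A link of either motif with H3K27ac was not tested. Windows were found for 71 of the 100 highest genes, which is under 80%, so a check of promoter features over the 100 genes is void and no share is given for them.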

How the data were processed

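Messenger RNA was sequenced in 3 libraries of chow liver, and groups were read from the sample titles. Per the submitters' processing notes, TopHat 1.4.0, HTSeq, DESeq2 1.0.18 and bedtools were used on the mouse build mm9 for mRNA, with no role stated for each. The deposited mRNA and promoter files hold raw counts per gene, as whole numbers whose totals differ between libraries. Counts were divided by the library total and multiplied by 1000000 (CPM) with pandas 2.3.3 in Python 3.11.15, and the spread over libraries was estimated with edgeR 4.0.16 in R 4.3.3; both steps were tested on simulated data. No test was made, since the samples form 1 group. Levels per transcript length, which had been planned, were not made, because transcript lengths of the files' build were not used here. Of 23227 symbols, 22982 were matched to a RefSeq annotation table, which gave gene type and neighbours. Sequences are from RefSeq.

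The 48 gene lists, the members and the settings were chosen with earlier results of these data known. The text names the 25 highest genes, the 3 highest of each list (1 for markers), the median and 2 lowest of each regulator list, genes at 6 fixed ranks, the 10 most and 5 least variable genes of at least 100 CPM, and the unlisted genes of the 100 highest; some of these are not reported here. Further genes, the hand-made classes and the gene families were chosen after values were seen. Depth limits low genes: thinned to 19016275 counts, the libraries detected 16049, 15783 and 15705 genes. Mitochondrial genome transcripts were not analysed here.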

Additional observations from a re-analysis of the deposited data

How the results depend on the processing

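For 16 results, 134 alternative values were computed. The settings were TMM and DESeq2 size factors (DESeq2 1.42.0), summed counts, thinning to the shallowest library, other minimum levels, and leaving out each library. Pancreatic markers or genes under 10 counts were also left out. Of the 134 values, 4 moved by more than 1 SD between libraries (counts of genes: 1.5-fold). For the biological coefficient of variation, the SD was that of the values with 1 library left out, 0.0296. Leaving out 1 of 3 libraries cannot move a mean by 1 SD, so the 4 do not measure how stable the shares are. The pancreatic share fell from 0.141% to 0.0805% without replicate 1 and still counted as unmoved. The share of the 10 highest genes ran from 15.7% to 16.1% with 1 library left out, and 175 to 178 genes held 50% of the counts. Genes of at least 1 CPM numbered from 11687 to 11779 with 1 library left out, 9101 at 5 CPM and 12647 at 0.5 CPM. The median of the regulator genes was 32.5 to 33.4 CPM with 1 library left out, against 33.3 CPM, and 35.8 CPM when genes under 10 counts were left out, which removes low members. The biological coefficient of variation ran from 0.0811 without replicate 1 to 0.140 without replicate 2. Median promoter H3K27ac was 82.7 CPM for the 300 highest genes against 62.4 CPM for the 100 highest; the cause was not tested. Pancreatic markers took 0.0805% to 0.189% of the counts with 1 library left out. Of the 205 genes followed across settings, 6 means moved by over 1.5 times when 1 library was left out: without replicate 1, Acta1 averaged 0.0523 CPM, Cela1 84.0, Cela2a 67.1, Cpb1 60.9, Ctrb1 110.0 and Pnlip 59.8 CPM. The settings per kilobase and those for promoter features were not run, for want of transcript lengths and of promoter windows for enough genes. No paired analysis was possible because the libraries form 1 group and no groups were compared.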
